A study of Mus musculus with 9 samples.

Results

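The genes that sense and repair DNA double-strand breaks were followed in RNA sequencing of primary articular chondrocytes of the mouse, the resident cells of joint cartilage. The list held 31 of the 55450 genes in the deposited files and was matched by gene symbol in all 9 libraries. Matching by symbol found 30 of them. H2afx is listed in the files under its newer symbol H2ax and was matched by its Ensembl identifier. By role the genes fall into 4 arms. Sensing and signalling has 14 genes, end joining 5, homologous recombination 9 and the Fanconi pathway 3. Each gene was measured in 3 groups of 3 libraries. In the first group cells received bleomycin at 50 µg/mL for 24 h and then ST045849, a small-molecule inhibitor of the O-GlcNAc transferase, at 20 µM for 5 days. In the second they received the same bleomycin and then DMSO for 5 days, and in the third (vehicle) PBS in place of bleomycin and then DMSO. Cells of all 3 groups had first been kept for 4 h with hyaluronidase type I-S at 4 U/mL without serum, and grew at 3% oxygen in medium with 10% serum that was renewed every 48 h. Bleomycin is a glycopeptide that cuts DNA, so the comparisons ask whether transcripts of the repair machinery differ days after the breaks were made, and whether they differ when the inhibitor follows. RNA was collected at 1 time only, 5 days after bleomycin was washed out. Cells given ST045849 without bleomycin were not analysed here, so an effect of the inhibitor alone cannot be told apart from one that needs bleomycin.

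A double-strand break is first bound by the MRN complex (Mre11a, Rad50 and Nbn), which recruits and activates the kinase Atm. Resected, single-stranded DNA activates the related kinase Atr. These kinases phosphorylate the histone variant H2afx around the break, Mdc1 binds the mark, and the ubiquitin ligases Rnf8 and Rnf168 build the platform on which Trp53bp1 and Rif1 assemble. The break is then joined directly by the Ku heterodimer (Xrcc5 and Xrcc6), the kinase Prkdc and the ligase pair Lig4 and Xrcc4, or copied from the sister chromatid by homologous recombination, which works in S and G2 phase. Much of this response runs through modification of proteins already present, which RNA levels do not report, and the genes of homologous recombination and the Fanconi pathway are known to be expressed mainly in dividing cells.

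Promoter letters were read first, because E2F factors drive S phase transcription of many repair genes. RefSeq promoters on GRCm38.p6, from 250 bases before to 50 bases after the start, were matched for 23 of the 31 genes. The E2F-type letters TTTGGCGC, TTTCCCGC, TTTGCCGC and TTTCGCGC, searched on both strands and not overlapping one another, were present in 5 of these 23 promoters (21.7%). They were present in 4.75% of the 9344 tested genes with a promoter in the table and in 2.6% of all 27025 genes there. The 5 genes were Mdc1, Chek2, Xrcc6, Bard1 and Brca2, and each carried TTTCCCGC. Bard1 and Brca2 were not among the tested genes, so shares of the list and of the tested genes cover unlike sets here. The cell cycle homology letters TTTGAA were present in 2 of the 23 (8.7%), Bard1 and Rnf8, against 13.9% of the tested genes. These are matches of letters and not measured binding sites. Stretches of 60 bases are printed for 4 of these genes, from 3 arms, 5′ to 3′ on the gene's own strand, with the E2F-type letters in capitals (GCGGGAAA is TTTCCCGC read on the other strand). Mdc1 lies at chr17:35841438-35841497 (plus strand), Chek2 at chr5:110839805-110839864 (plus), Xrcc6 at chr15:82016297-82016356 (plus) and Bard1 at chr1:71103148-71103207 (minus).
Mdc1: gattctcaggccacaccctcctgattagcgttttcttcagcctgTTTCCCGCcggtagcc
Chek2: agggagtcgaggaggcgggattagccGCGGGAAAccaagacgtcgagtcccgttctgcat
Xrcc6: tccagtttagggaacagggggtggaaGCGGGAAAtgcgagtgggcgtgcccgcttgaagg
Bard1: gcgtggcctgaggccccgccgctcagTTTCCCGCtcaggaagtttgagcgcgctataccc
The letters begin 16 bases before the start in Mdc1, 46 in Xrcc6, 152 in Chek2 and 209 in Bard1. The 4 genes did not share a level. Xrcc6 averaged 12.6 FPKM over all libraries, Mdc1 4.52, Chek2 2.63 and Bard1 0.219.

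Levels are given in FPKM, fragment counts scaled by transcript length and sequencing depth, as the authors deposited them. A gene was tested when it reached 1 FPKM in at least 3 of the 9 libraries, which 12441 genes and 23 of the 31 did. Differences are in log2(FPKM + 1), so folds of genes near 1 FPKM come out too small. Called means an adjusted p below 0.05 in limma's test over all tested genes. The deposited values summed to 340303 to 483953 FPKM per library. The steps between low values point to 31600000 to 36600000 fragments per library, if 1 step is 1 fragment. On that reading Bard1, the lowest of the 31, rested on 19 to 67 fragments per library and Trp53bp1 on 1716 to 4222. Library-to-library correlations over the tested genes were 0.936 to 0.954 in the ST045849 group, 0.97 to 0.974 in the bleomycin group and 0.961 to 0.979 in the vehicle group. The 8 chondrocyte markers summed to 13920 to 20670 FPKM in the ST045849 libraries, 17590 to 24990 in the bleomycin libraries and 23660 to 33070 in the vehicle libraries. Against vehicle 3 of these 8 fell with ST045849, where 1.74% of all tested genes fell, and 0 were called with bleomycin alone. Of 10 macrophage markers 3 were tested (Lyz2, Cd68 and Cd14), and all 3 rose in both bleomycin groups against vehicle. Of all tested genes 8.11% rose with ST045849 and 4.2% with bleomycin alone. The 10 summed to 11.9 to 17.98, 10.9 to 12.6 and 3.05 to 5.75 FPKM in the ST045849, bleomycin and vehicle libraries, while C1qb, C1qc and Tyrobp were listed at 0. Fibroblast or synovial markers summed to 1251 to 2667, 2315 to 3338 and 1296 to 1352 FPKM in the same order of groups. Of the 6 tested, 2 rose with ST045849 and 3 with bleomycin alone against vehicle. The part of these other cell types in the results was not tested.

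**Figure D1:**
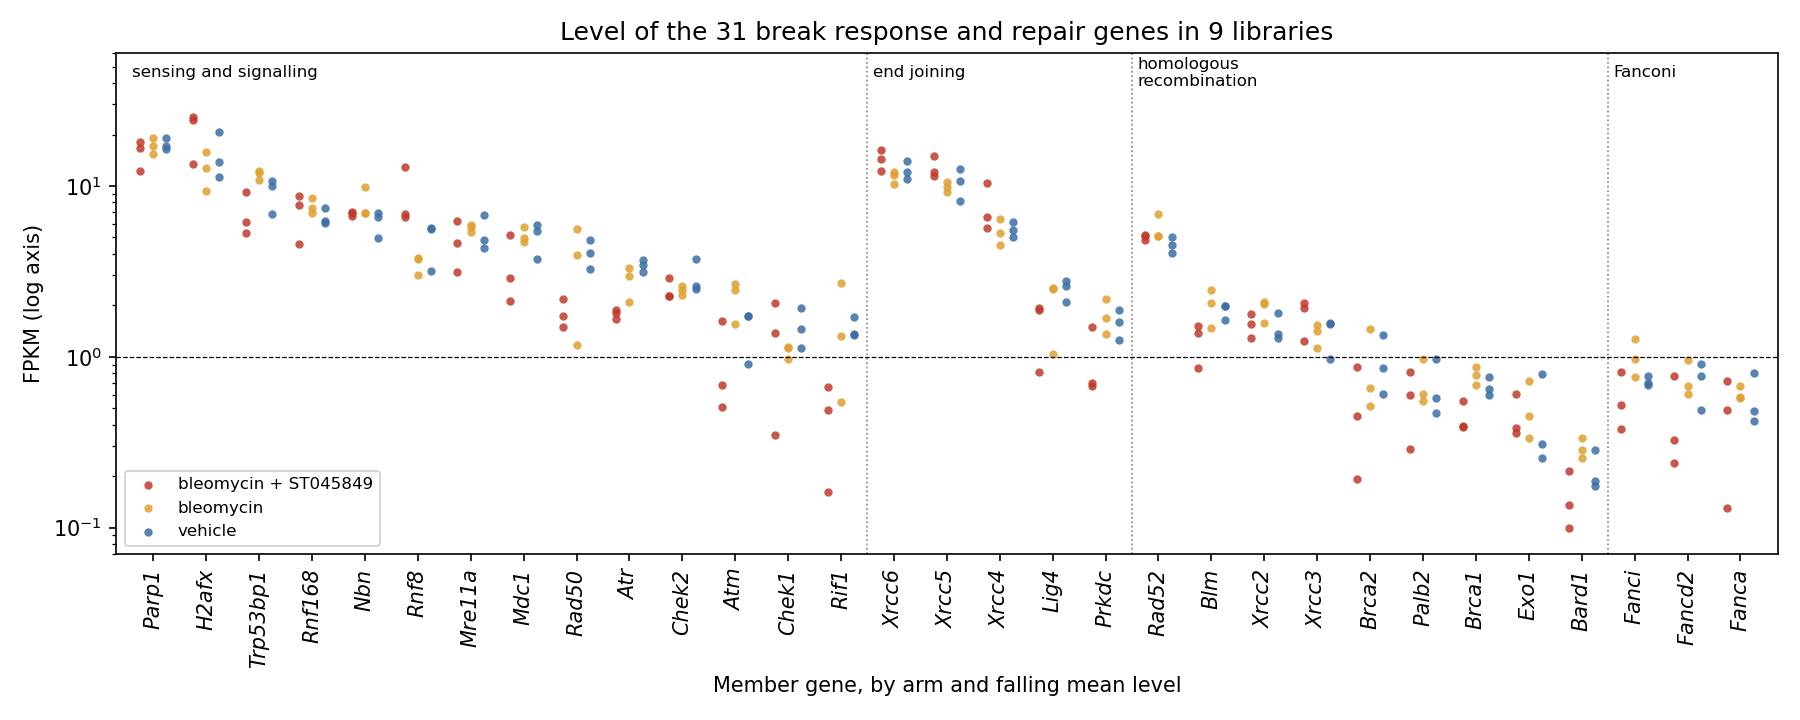
FPKM (log axis) of the 31 genes in each of the 9 libraries, by arm and by falling mean level; each point is 1 library, with the bleomycin plus ST045849 group left of the bleomycin group and the vehicle group on the right. The dashed line is 1 FPKM. Levels ran from about 17 FPKM for Parp1 to about 0.2 FPKM for Bard1, and all 8 genes that missed the filter belong to homologous recombination or the Fanconi pathway.

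The arms stood at different levels in these cells. Parp1, the polymerase that marks strand breaks with poly(ADP-ribose), was the most abundant of the sensing genes. It had 16.8, 18.2 and 12.2 FPKM in the ST045849 libraries, 15.4, 19.2 and 17.1 FPKM in the bleomycin libraries and 19.1, 17.2 and 16.3 FPKM in the vehicle libraries. These groups overlapped. H2afx averaged 16.3 FPKM over all libraries, Xrcc6 12.6, Xrcc5 11.1 and Trp53bp1 9.25. At the low end of the same arm Rif1 averaged 1.14, Chek1 1.28 and Atm 1.54 FPKM. Members of 1 complex differed as well. Of the end-joining machinery Prkdc, the catalytic kinase that Ku recruits, averaged 1.43 FPKM beside the 2 Ku subunits. In homologous recombination 5 of 9 genes (Brca1, Brca2, Bard1, Palb2 and Exo1) missed the filter, as did all 3 Fanconi genes. FPKM are scaled by length, so these are levels per base of transcript.

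With bleomycin against vehicle, no gene of the list was called, and differences were small. In limma's test 0 of the 23 tested genes passed, where 607 of all tested genes (4.88%) did. At an unadjusted p under 0.05 the count was also 0 of 23, where 17.4% of all tested genes passed. Differences lay between -0.34 and 0.39 log2 units, 11 above 0 and 12 below, with a median of -0.03 beside 0.10 for all tested genes. Under median-of-ratios scaling the median of all genes became -0.05 and that of the list -0.17, so relative to other genes the list stood slightly lower on either scale. The 3 bleomycin libraries lay above the 3 vehicle libraries in 3 genes, Nbn, Rad52 and Trp53bp1, and below them in 0 genes. Over all tested genes 21.4% lay wholly above and 6.53% wholly below. The 95% intervals of single genes differed in width. That of Parp1 was -0.46 to 0.41 and that of Xrcc6 -0.51 to 0.29, while that of Rad50 was wide at -1.02 to 0.48.

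The genes with the smallest p in that comparison were Nbn, Atm, Rad52, Trp53bp1, Xrcc2 and Atr. Nbn, the MRN subunit that brings Atm to the break, had 6.95, 6.96 and 9.84 FPKM with bleomycin and 6.56, 4.94 and 6.91 with vehicle. The lowest bleomycin library was barely above the highest vehicle library, and the difference was 0.32 ± 0.20 log2 units (SE; adjusted p = 0.47). Rad52, which anneals complementary single strands, had 5.08, 5.07 and 6.81 FPKM with bleomycin and 4.498, 4.06 and 4.99 with vehicle (0.26 ± 0.18, adjusted p = 0.518). Here too the third bleomycin library was the high one. Xrcc2, a paralogue that helps load the strand-exchange recombinase, had 2.10, 2.03 and 1.58 FPKM with bleomycin and 1.80, 1.36 and 1.29 with vehicle. Its groups overlapped, with a difference of 0.23 ± 0.17 log2 units (adjusted p = 0.571). When each library was left out in turn, the lowest adjusted p among the 6 was 0.348, for Atm.

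**Figure D2:**
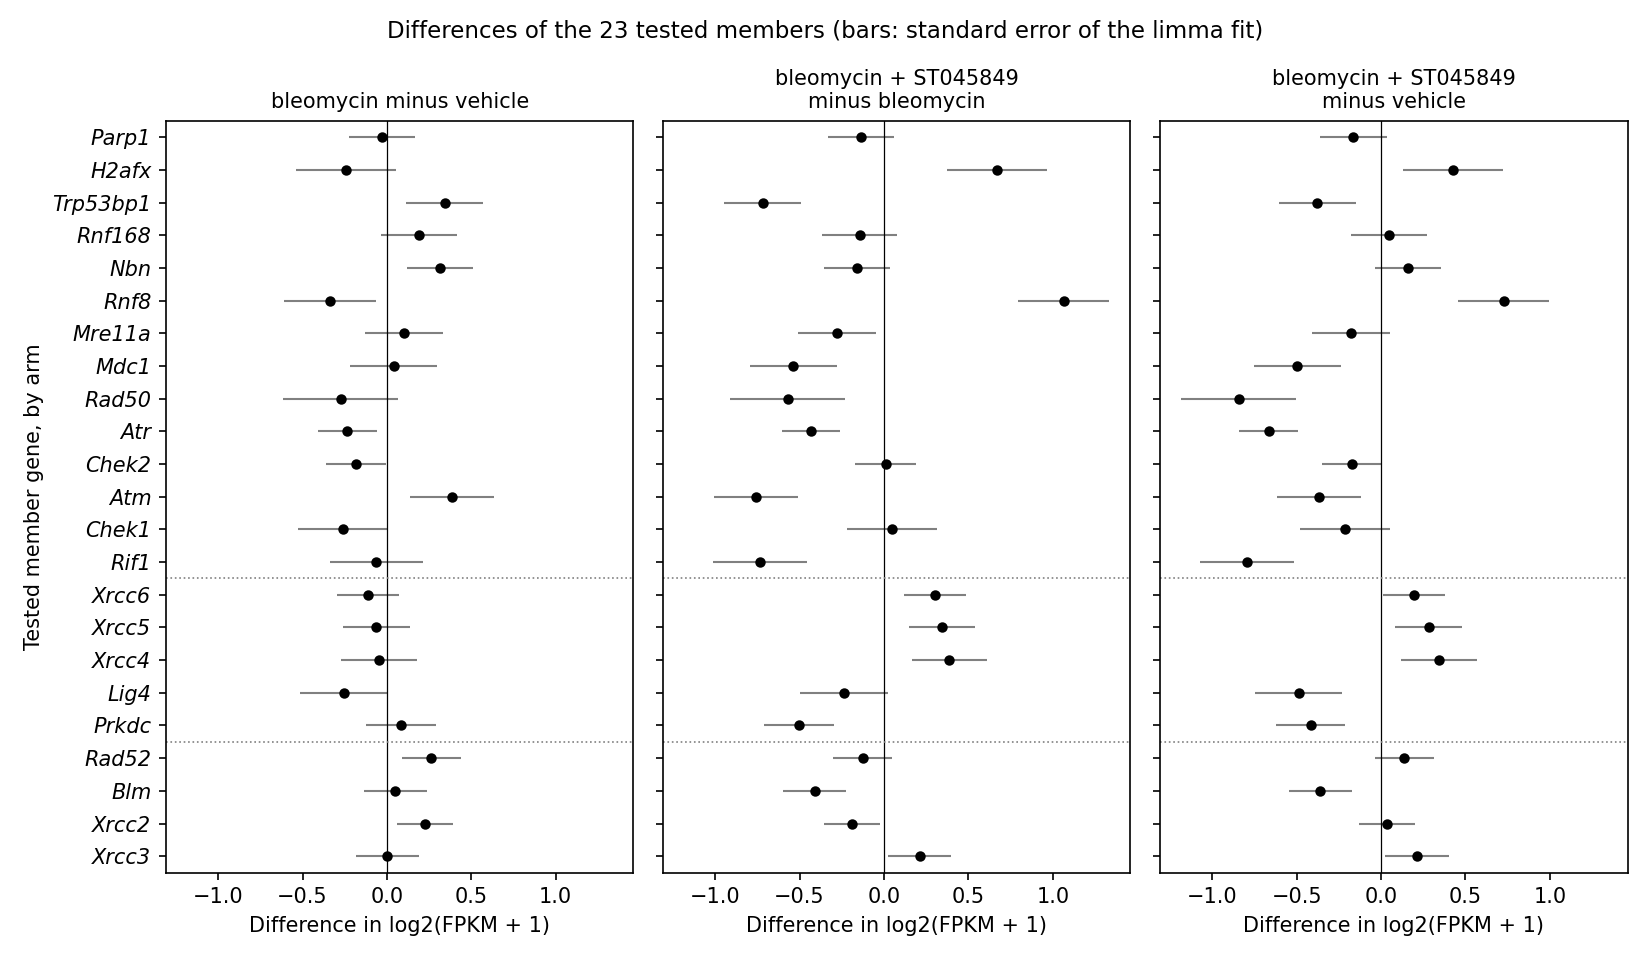
Difference in log2(FPKM + 1) of the 23 tested genes in each comparison, bleomycin minus vehicle, bleomycin plus ST045849 minus bleomycin and bleomycin plus ST045849 minus vehicle; points are limma estimates, bars their standard errors, and dotted lines separate sensing, end joining and homologous recombination. Bleomycin differences lie within -0.34 to 0.39, while with ST045849 against bleomycin they spread between -0.76 (Atm) and 1.06 (Rnf8).

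With ST045849 after bleomycin, against bleomycin alone, the spread of the differences was wider, and long transcripts were lower. Rnf8 and H2afx were higher, and Atm, Rif1, Trp53bp1, Prkdc and Atr were lower, each at an unadjusted p under 0.05 in limma's test. None was called over all genes: 0 of 23 passed in limma's test, as did 0 of 12441 tested genes (0%). At an unadjusted p under 0.05 there were 7 of 23, where 22.5% of all tested genes passed. The median of the list was -0.16 beside 0.06 for all tested genes, with 8 genes above 0 and 15 below. Rnf8, Xrcc5 and Xrcc6 were higher in all 3 ST045849 libraries than in any bleomycin library, and Trp53bp1 and Atr were lower in all 3. Over all tested genes 16.5% lay wholly above and 8.67% wholly below.

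In this pair of groups libraries with the same number deviated together, so a paired fit of the 2 groups is given beside the unpaired one. No label states a pairing. It was read from the same values that the paired fit tests, so these calls are no independent support. The paired fit called 5 of the 23 genes. Rnf8 (1.06, adjusted p = 0.0199) and H2afx (0.67, adjusted p = 0.0322) rose, where 11.3% of all tested genes rose. Atm (-0.76, adjusted p = 0.0236), Rif1 (-0.73, adjusted p = 0.0241) and Trp53bp1 (-0.72, adjusted p = 0.0367) fell, where 8% of all tested genes fell. The unpaired result also rested on ST045849 library 1. Without it 6 genes were called, where 18% of all genes tested in that fit were called. Rnf8 (1.20, adjusted p = 0.0301) and H2afx (0.95, adjusted p = 0.0441) rose, and Atm, Trp53bp1, Mdc1 and Prkdc fell by 1.00, 0.92, 0.82 and 0.69 log2 units (adjusted p = 0.0268, 0.0271, 0.036 and 0.0382). Leaving out any other library called 0 of 23.

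With bleomycin and ST045849 against vehicle, Atr was the only called gene of the list, and it was lower in the deposited values. Its call was lost when length trends were removed and when any of several single libraries was left out, as given below. In limma's test 1 of 23 passed and fell, where 9.85% of all tested genes were called, 8.11% rising and 1.74% falling. At an unadjusted p under 0.05 there were 4 of 23 (Atr, Rif1, Rnf8 and Rad50), against 31.1% of all tested genes. The list's median was -0.17 and that of all tested genes 0.19. Under median-of-ratios scaling these became -0.35 and -0.01. All 3 ST045849 libraries lay below all vehicle libraries in Atr, Rif1, Rad50, Blm and Lig4, and above them in Rnf8. The shares over all tested genes were 6.66% below and 21% above. This comparison shares its libraries with the other comparisons and is no independent measurement of either.

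Among the kinases that start the signal, Atr, which responds to single-stranded DNA, had 1.80, 1.67 and 1.89 FPKM in the ST045849 libraries, 3.33, 2.10 and 2.95 in the bleomycin libraries and 3.67, 3.13 and 3.46 in the vehicle libraries. The ST045849 libraries lay close together and below all others. Against vehicle Atr fell by 0.67 ± 0.17 log2 units (SE, adjusted p = 0.0374, 95% interval -1.05 to -0.28). In a bulk sample, less RNA per cell and fewer cells that express the gene cannot be told apart. The call was lost without vehicle library 1, 2 or 3 (adjusted p = 0.0589, 0.107 and 0.127), without bleomycin library 3 (0.0611) and without ST045849 library 2 or 3 (0.0881 and 0.0769). Its size stayed between -0.71 and -0.63. Against bleomycin the difference was -0.43 ± 0.17 (adjusted p = 0.204), and between bleomycin and vehicle it was -0.23 ± 0.17 (adjusted p = 0.575). Atr has the greatest total exon length of the list, 23629 bases, although its transcript with the longest coding sequence has 8102, and its difference depended on how length was treated, as given below.

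Atm, the kinase that MRN activates at breaks, had 1.63, 0.505 and 0.679 FPKM with ST045849, 2.45, 1.55 and 2.66 with bleomycin and 0.912, 1.74 and 1.73 with vehicle. ST045849 library 1 stood apart from libraries 2 and 3 and overlapped the bleomycin group. Against bleomycin the difference was -0.76 ± 0.25 (adjusted p = 0.203), and between bleomycin and vehicle 0.39 ± 0.25 (adjusted p = 0.496). The effector kinases downstream differed less between groups, and their groups overlapped, as those of Atm did. Chek1, which Atr activates, averaged 1.27, 1.08 and 1.51 FPKM in the ST045849, bleomycin and vehicle groups. Chek2, which Atm activates, averaged 2.48, 2.45 and 2.95 FPKM. The differences of Chek1 and Chek2 lay between -0.26 and 0.05 log2 units in the 3 comparisons.

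Of the MRN subunits, Rad50, the long coiled-coil ATPase that bridges ends, had 2.19, 1.497 and 1.73 FPKM with ST045849, 5.57, 1.18 and 3.96 with bleomycin and 4.81, 3.25 and 4.07 with vehicle. The bleomycin libraries spanned both other groups, because bleomycin library 2 held the lowest value of all 9. Against vehicle the difference was -0.84 ± 0.34 (adjusted p = 0.123), and it was called only when bleomycin library 2 was left out (adjusted p = 0.038). The nuclease Mre11a averaged 4.65 ± 1.55, 5.68 ± 0.31 and 5.32 ± 1.28 FPKM (SD, n = 3 each) in the ST045849, bleomycin and vehicle groups, and its groups overlapped. Nbn averaged 6.90 ± 0.20 FPKM with ST045849.

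The chromatin mediators moved in different directions with ST045849. Rnf8, the ubiquitin ligase that reads phosphorylated Mdc1, had 6.83, 6.60 and 12.9 FPKM with ST045849, 3.73, 3.78 and 3.02 with bleomycin and 5.64, 3.19 and 5.57 with vehicle. All 3 ST045849 libraries stood above all 6 others, library 3 by the widest margin. The difference from bleomycin was 1.06 ± 0.27 (adjusted p = 0.203, 95% interval 0.47 to 1.66), a fold of 2.09 on the log2(FPKM + 1) scale, and that from vehicle 0.73 ± 0.27 (adjusted p = 0.1). Without ST045849 library 3 they were 0.78 and 0.44. Of the exon bases of Rnf8, 13.2% are shared with Gm28043, a protein-coding gene annotated on the same strand, so reads of the pair may have been split. H2afx had 13.5, 24.3 and 25.2 FPKM with ST045849, 9.37, 12.7 and 15.8 with bleomycin and 20.6, 11.3 and 13.8 with vehicle. Libraries 2 and 3 with ST045849 were the highest of all, and library 1 was inside the range of the other groups. The kit selects poly(A) RNA, so the histone-type transcript of H2afx without a poly(A) tail is not counted.

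Trp53bp1, the mediator that protects ends from resection and favours end joining, had 9.23, 6.15 and 5.29 FPKM with ST045849, 10.9, 12.3 and 11.9 with bleomycin and 6.89, 9.96 and 10.7 with vehicle. Every ST045849 library was below every bleomycin library, and the difference was -0.72 ± 0.23 (adjusted p = 0.203). The vehicle libraries overlapped the ST045849 libraries. On the opposite strand, 15% of the exon bases of Trp53bp1 are shared with Tubgcp4, and whether counting used strand is not given in the sources used here. Rif1, its partner in end protection, had 0.663, 0.162 and 0.486 FPKM with ST045849, 2.69, 0.540 and 1.33 with bleomycin and 1.34, 1.36 and 1.72 with vehicle. It was below every vehicle library in all 3 ST045849 libraries, while bleomycin library 2 was lower than ST045849 library 1. Against vehicle the difference was -0.80 ± 0.28 (adjusted p = 0.0869, and 0.0464 without bleomycin library 1), and against bleomycin -0.73 ± 0.28 (adjusted p = 0.203). Mdc1, the scaffold that binds phosphorylated H2afx, had 5.19, 2.12 and 2.89 FPKM with ST045849, 5.77, 4.95 and 4.70 with bleomycin and 3.74, 5.92 and 5.42 with vehicle. ST045849 library 1 lay within both other groups and libraries 2 and 3 below all others, giving -0.54 ± 0.26 against bleomycin (adjusted p = 0.23) and -0.50 ± 0.26 against vehicle (adjusted p = 0.209, and 0.0329 without ST045849 library 1). Rnf168, the ligase that extends the ubiquitin mark, averaged 7.002 ± 2.16, 7.63 ± 0.80 and 6.57 ± 0.73 FPKM in the ST045849, bleomycin and vehicle groups. Over the 14 genes of sensing and signalling the mean of log2(FPKM + 1) was 2.47, 2.11 and 2.36 in the ST045849 libraries, 2.58, 2.36 and 2.58 in the bleomycin libraries and 2.56, 2.42 and 2.58 in the vehicle libraries. Library 2 with ST045849 was the lowest, and the groups overlapped.

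**Figure D3:**
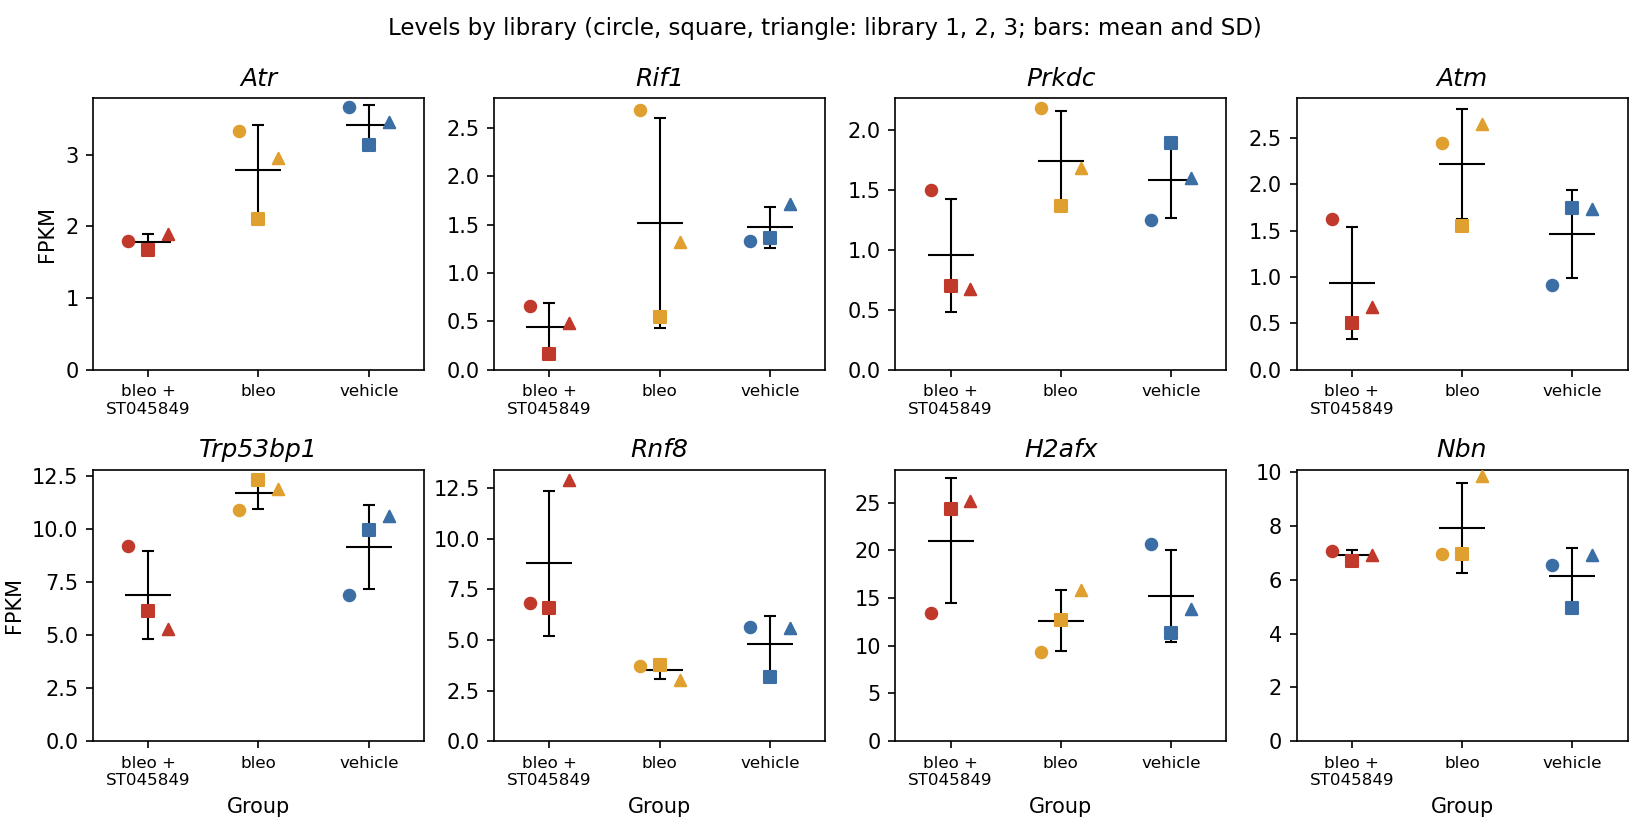
FPKM of 8 genes in each library, with the bleomycin plus ST045849 group on the left, bleomycin in the middle and vehicle on the right; circles, squares and triangles are libraries 1, 2 and 3, and bars show mean and SD (n = 3). In Atr all ST045849 libraries lie at or below 1.89 FPKM and all others at or above 2.10, in Rnf8 all ST045849 libraries lie at or above 6.60 FPKM, and in Atm, Prkdc and H2afx ST045849 library 1 stands apart from libraries 2 and 3.

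In end joining no gene was called in limma's test of all 9 libraries. Xrcc6, a subunit of the Ku ring that caps broken ends, had 12.3, 16.2 and 14.3 FPKM with ST045849, 10.3, 11.6 and 12.1 with bleomycin and 14.0, 10.95 and 12.1 with vehicle. The ST045849 libraries lay just above the bleomycin libraries, with a difference of 0.30 ± 0.18 (adjusted p = 0.307). Its partner Xrcc5 averaged 12.9 ± 1.87, 9.86 ± 0.69 and 10.5 ± 2.18 FPKM in the 3 groups, a difference of 0.34 ± 0.20 from bleomycin (adjusted p = 0.292). Prkdc, the kinase that the 2 recruit, had 1.5, 0.698 and 0.670 FPKM with ST045849, 2.18, 1.36 and 1.68 with bleomycin and 1.25, 1.89 and 1.60 with vehicle. ST045849 library 1 was again inside the other groups, and the difference from bleomycin was -0.50 ± 0.21 (adjusted p = 0.207). Against vehicle it was -0.42 ± 0.21 (adjusted p = 0.19, and 0.0444 without ST045849 library 1). Lig4, the ligase that seals the ends, averaged 1.54 ± 0.63, 2.02 ± 0.85 and 2.496 ± 0.35 FPKM, and its scaffold Xrcc4 7.52 ± 2.48, 5.39 ± 0.96 and 5.55 ± 0.54 FPKM. Over the 5 genes the mean of log2(FPKM + 1) was 2.59, 2.47 and 2.75 in the ST045849 libraries, 2.56, 2.40 and 2.67 in the bleomycin libraries and 2.64, 2.55 and 2.68 in the vehicle libraries. The arm's mean level thus overlapped between all groups.

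In homologous recombination only Rad52, Xrcc2, Xrcc3 and Blm passed the filter, and none was called in any comparison. Rad52 had 5.12, 4.84 and 5.19 FPKM with ST045849, between the bleomycin and vehicle means of 5.65 and 4.52 FPKM. Blm, a helicase that dissolves joined DNA molecules, averaged 1.25 ± 0.34, 1.99 ± 0.49 and 1.86 ± 0.19 FPKM in the ST045849, bleomycin and vehicle groups, -0.36 ± 0.19 against vehicle (adjusted p = 0.21). Xrcc3, another recombinase paralogue, averaged 1.75 ± 0.44, 1.36 ± 0.21 and 1.37 ± 0.34 FPKM. Over these 4 genes the mean of log2(FPKM + 1) was 1.72, 1.56 and 1.62 with ST045849, 1.73, 1.69 and 1.86 with bleomycin and 1.72, 1.59 and 1.58 with vehicle, again with overlap. Brca1, which promotes resection, had 0.554, 0.387 and 0.393 FPKM with ST045849, 0.687, 0.777 and 0.876 with bleomycin and 0.647, 0.593 and 0.761 with vehicle. Bard1, its obligate partner, had 0.215, 0.135 and 0.0992 FPKM with ST045849, 0.256, 0.334 and 0.283 with bleomycin and 0.285, 0.187 and 0.176 with vehicle. Both had all ST045849 libraries below all bleomycin libraries. Of the tested genes, an unlike set that leaves these 2 out, 8.67% lay wholly below. Neither reached the filter, and length trends were not removed from the values of these 2 genes (8533 and 5659 exon bases). In a fit of 30298 genes without the filter their differences from bleomycin were -0.30 ± 0.10 and -0.17 ± 0.05, not called at an adjusted p of 0.375 each. Brca2 and Palb2, which load the recombinase, averaged 0.505 and 0.566 FPKM with ST045849, 0.871 and 0.709 with bleomycin and 0.936 and 0.671 with vehicle. Exo1, a resection nuclease, averaged 0.448, 0.502 and 0.453 FPKM.

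The 3 Fanconi genes were all below the filter. Fanci, which pairs with Fancd2 in the complex that is ubiquitinated at crosslinks, had 0.812, 0.521 and 0.378 FPKM with ST045849, 0.970, 1.27 and 0.759 with bleomycin and 0.775, 0.703 and 0.683 with vehicle. Fanca, a subunit of the core ligase complex, had 0.726, 0.490 and 0.131 FPKM with ST045849, 0.582, 0.675 and 0.572 with bleomycin and 0.806, 0.484 and 0.418 with vehicle. Fancd2 averaged 0.446 ± 0.288, 0.746 ± 0.189 and 0.726 ± 0.214 FPKM in the same groups. Summed over the 3 genes the level was 2.31, 1.34 and 0.746 FPKM with ST045849, 2.22, 2.90 and 1.94 with bleomycin and 2.36, 2.10 and 1.59 with vehicle. Libraries 2 and 3 with ST045849 were the lowest, and library 1 lay within the other groups. Without the filter, Fanci differed by -0.35 ± 0.15 from bleomycin (adjusted p = 0.377), and none of the 8 genes below the filter was called in any comparison.

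The differences with ST045849 followed gene length in the list and in the whole transcriptome. The repair genes are long. Their median total exon length is 5774 bases, and 25 of 31 exceed the median of the tested genes, 4248.5 bases. Across the 23 tested genes the difference between ST045849 and bleomycin had a Pearson correlation of -0.52 with log2 exon length, and across 12432 tested genes with a length -0.50. These are descriptions across genes of the same libraries, which are not independent replicates. The median difference of all tested genes was 0.49 in the bin with a median length of 1551.5 bases and -0.59 in the bin with a median of 17516 bases. The libraries differed in this trend. The slope of the log2 level per doubling of length, relative to the mean of all libraries, was 0.02, -0.21 and -0.14 in ST045849 libraries 1, 2 and 3, 0.10, 0.04 and 0.09 in the bleomycin libraries and -0.07, 0.10 and 0.08 in the vehicle libraries. Bleomycin against vehicle had correlations of 0.11 in the list and 0.12 over all genes.

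**Figure D4:**
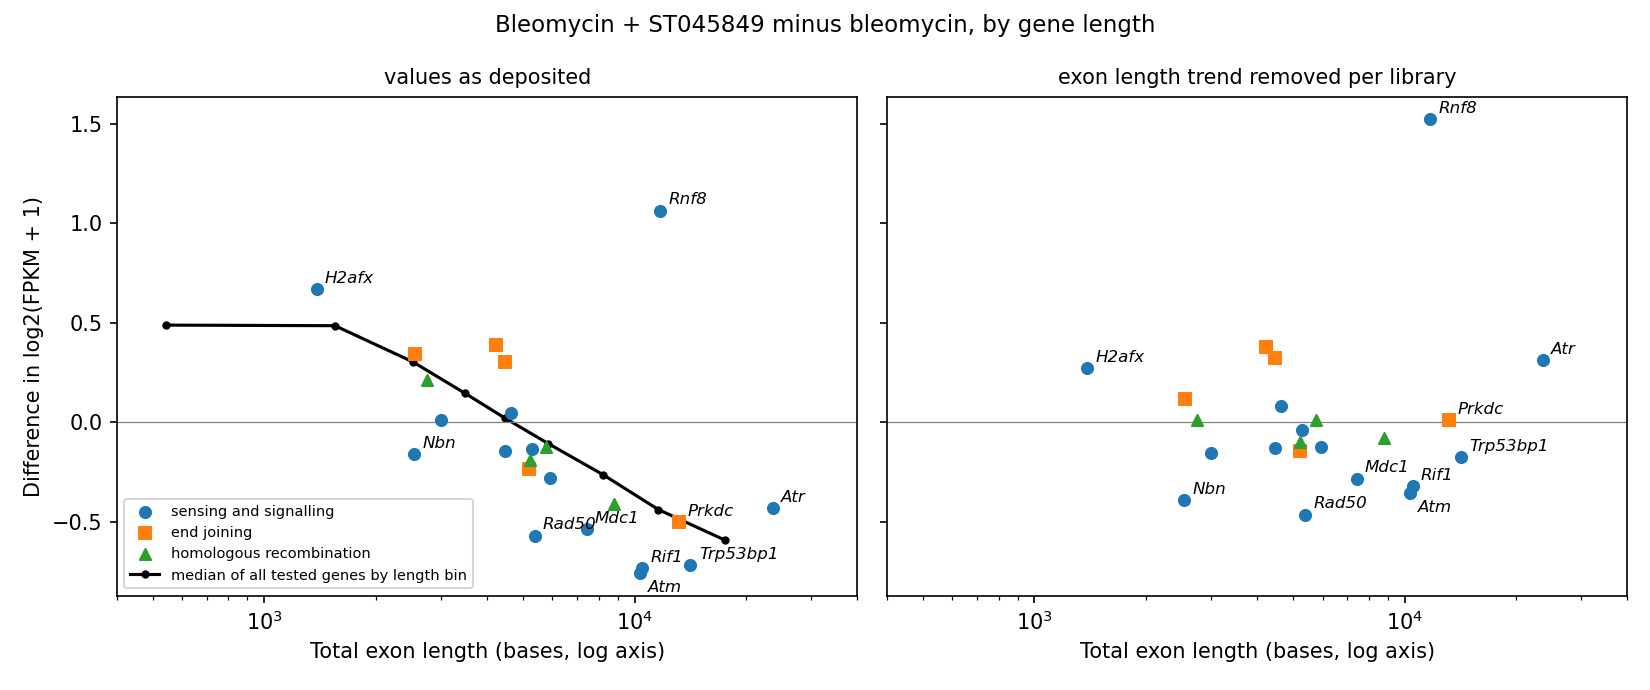
Difference in log2(FPKM + 1) between bleomycin plus ST045849 and bleomycin for the 23 tested genes against total exon length (bases, log axis), with values as deposited on the left and after removal of each library's length trend on the right; marker shapes are arms, and the black line joins medians of all tested genes by length bin. Long genes such as Trp53bp1 and Prkdc lie near or below the falling line on the left and nearer 0 on the right, while Rnf8 lies above it at 1.06 and at 1.52.

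After each library's trend with exon length was removed, the differences of most of the long genes shrank or turned. Against bleomycin Atr moved to 0.31, Prkdc to 0.01, Trp53bp1 to -0.18, Rif1 to -0.32, Atm to -0.36 and Mdc1 to -0.28, and the list's median moved to -0.08. With the length of the transcript with the longest coding sequence in place of all exons, they were 0.13 for Atr, 0.26 for Prkdc, -0.07 for Trp53bp1, -0.15 for Rif1, -0.11 for Atm and -0.03 for Mdc1. The call of Atr against vehicle was lost, at 0.09 (adjusted p = 0.846) by exon length and -0.16 (adjusted p = 0.667) by transcript length. With each library's length slope as a covariate instead, the difference of Atr kept its size, at -0.64 against vehicle (adjusted p = 0.138) and -0.40 against bleomycin. H2afx, the shortest gene of the list at 1384 bases, was affected as well. Its difference from bleomycin shrank to 0.27 by exon length and 0.34 by transcript length, with adjusted p of 0.276 and 0.195 in the paired fit, and was -0.06 with the slope as a covariate. Rad50 kept more of its difference from vehicle, at -0.77 and -0.57, but was not called. The difference of Rnf8 depended on the method. From bleomycin it was 1.52 by exon length (adjusted p = 0.309) and 1.42 by transcript length (adjusted p = 0.339), but 0.80 with the slope as a covariate (adjusted p = 1), and from vehicle 0.52 with that covariate (adjusted p = 0.474). By exon length it was called in the paired fit (adjusted p = 0.0447), where 0.652% of all genes rose, and without ST045849 library 1 (1.80, adjusted p = 0.0362), where 2.01% rose. Against vehicle it was called as well (1.16, adjusted p = 0.0479), where 8.45% rose. By transcript length it missed the threshold in the paired fit (adjusted p = 0.0657) and against vehicle (1.03, adjusted p = 0.0593). The total exon length of Rnf8 is 11703 bases and that transcript 5404. The part of RNA quality or library preparation in the length trend was not tested.

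Other genes of break repair gave the setting. Of 88 listed genes 74 were tested. With bleomycin against vehicle 1 of 74 rose, where 4.2% of all tested genes rose, and 0 fell. It was Rnf169, which binds the ubiquitin mark made by Rnf168 and limits Trp53bp1, and it had 3.88, 4.40 and 4.05 FPKM with bleomycin and 1.82, 2.45 and 2.06 with vehicle. The groups lay well apart, with a difference of 0.72 ± 0.17 (adjusted p = 0.0359). Leaving out any 1 of these 6 libraries ended the call, at adjusted p between 0.0844 (vehicle library 2) and 0.147 (bleomycin library 2), with differences between 0.65 and 0.80. With ST045849 against vehicle 3 of 74 rose, where 8.11% of all tested genes rose, and 0 fell. They were Aplf, which assists end joining, Rpa2, a subunit of the complex that coats single strands, and Atrip, the partner that brings Atr to such DNA. Atrip had 5.12, 7.79 and 5.73 FPKM with ST045849, 4.87, 4.84 and 4.65 with bleomycin and 3.80, 3.25 and 3.29 with vehicle. It was thus higher than in vehicle (0.68 ± 0.18, adjusted p = 0.04). Its partner Atr was lower in the deposited values, but differed by 0.09 and -0.16 after removal of the exon and transcript length trends. Differences of the other genes in this paragraph are given without removal of these trends. Of the exon bases of Atrip, 16% are shared with Trex1 on the same strand. Aplf differed by 0.66 ± 0.17 (adjusted p = 0.0331) and Rpa2 by 0.76 ± 0.19 (adjusted p = 0.034). Each of these 3 calls was lost without vehicle library 2 (adjusted p = 0.158 for Aplf, 0.152 for Rpa2 and 0.153 for Atrip), vehicle library 3 (0.116, 0.139 and 0.142), bleomycin library 2 (0.055, 0.0573 and 0.0642) or 3 (0.0538, 0.0552 and 0.0658), and ST045849 library 2 (0.0594, 0.0868 and 0.0978) or 3 (0.0831, 0.0867 and 0.0747). Those of Rpa2 and Atrip were also lost without bleomycin library 1 (0.0535 and 0.0623). Against bleomycin 0 of 74 were called, as were 0 of all 12441 tested genes. The smallest p belonged to Slx4, a scaffold of structure-cutting nucleases (-0.74 ± 0.19), and Rpa3, another subunit of the single-strand complex (0.88 ± 0.27), both at an adjusted p of 0.203.

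Genes of the p53 response and of S phase show what else the same libraries held. Of 25 p53 targets 6 rose with bleomycin against vehicle, where 4.2% of all tested genes rose, among them Psrc1 (1.51 ± 0.21, adjusted p = 0.00384) and Cdkn1a, which encodes a CDK inhibitor (1.15 ± 0.28, adjusted p = 0.0377), and 0 fell. Cdkn1a had 243.4, 331.4 and 363.8 FPKM with bleomycin and 157.5, 111.4 and 151.1 with vehicle. In the same comparison 0 of the 23 repair genes was called. Whether the calls of p53 targets hold with single libraries left out is not given here. With ST045849 against vehicle 13 of the 25 rose, where 8.11% of all tested genes rose. With a replicate block and these 2 groups alone, 2 of the 25 rose, where 176 of all 12441 tested genes rose. With ST045849 against bleomycin 0 of 25 were called, as were 0 of all 12441 tested genes. Of 30 S phase and proliferation genes 28 were tested. With bleomycin against vehicle 0 were called, where 4.88% of all tested genes were called. With ST045849 against vehicle 2 rose, where 8.11% of all tested genes rose, Ccne1 (1.13 ± 0.24, adjusted p = 0.017) and E2f1 (0.76 ± 0.17, adjusted p = 0.0212). Both calls were lost without vehicle library 2 (0.0837 and 0.0946), vehicle library 3 (0.0664 and 0.105) or ST045849 library 3 (0.0593 and 0.0517). Mki67, a marker of cycling cells that was chosen for mention after its values were seen, had 0.709, 0.231 and 0.210 FPKM with ST045849, 3.30, 0.499 and 0.659 with bleomycin and 3.81, 1.55 and 2.06 with vehicle. It was lower in all 3 ST045849 libraries than in any vehicle library, where 6.66% of all tested genes lay wholly below. The difference of Mki67 was -1.29 ± 0.38 (adjusted p = 0.0528), the lowest of the list, and is given without removal of length trends. Over the whole list the groups were not apart. With ST045849 against vehicle 14 of the 28 genes were higher and 14 lower, with a median of 0.03. The mean of log2(FPKM + 1) over the 28 was 2.67, 2.54 and 2.79 in the ST045849 libraries, 2.63, 2.65 and 2.75 in the bleomycin libraries and 2.94, 2.29 and 2.63 in the vehicle libraries. The part of cycling cells in the results was not tested.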

How the data were processed

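RNA of 9 chondrocyte samples was sequenced from libraries of a stranded poly(A) kit, per the labels' protocols. Per the submitters' processing notes Trimmomatic, STAR and the build GRCm38 were used (no versions given). The authors deposited 1 FPKM value per gene and library. How they counted, with which annotation, gene length, denominator and strand setting, is not given in the sources used here. The labels are silent on whether replicates were separate animals or cultures. The p-values therefore measure only the spread between these libraries, which may be technical. No library pair was identical.

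The 31 genes and the other lists were chosen with earlier results of these data known. Genes reaching 1 FPKM in at least 3 libraries were tested (12441 of 55450). All 9 libraries were fitted together on log2(FPKM + 1) with limma 3.58.1 in R 4.3.3, with variances that follow the mean (6 residual and 4.95 prior degrees of freedom), two-sided tests and Benjamini-Hochberg adjustment over all tested genes. Every adjusted p is from limma. Depth was read from steps between low values. Only 35.2 to 53.9% of low values fell within 0.02 of a whole step, so reads were not recovered and no count test was run. Exon and transcript lengths, coordinates and overlaps come from GENCODE vM21, which is on GRCm38. Length trends were removed per library by loess (span 0.5) of each library's deviation from the mean on log2 length. The script was tested on simulated data.

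Each library's values are given for genes called in any comparison, for the 6 smallest p per comparison and for the most and least abundant gene of each arm, and for H2afx and Brca1, added after their values were seen. Of other lists up to 4 called genes per direction are named, otherwise the 2 with the smallest p. Pairing was checked by correlating deviations from the group means. Equal replicate numbers of ST045849 and bleomycin gave 0.466, 0.481 and 0.5, each the best match of its library, and a paired fit of that comparison is given beside the unpaired one. No label states a pairing, so it is read from the data. The length slopes also fell in the same order of libraries, 1, 3 and 2, in both groups. The part of the length trend in these matches was not tested. Equal numbers gave -0.071, -0.026 and 0.546 between bleomycin and vehicle. Between ST045849 and vehicle they gave -0.519, -0.279 and 0.424, and there libraries 1 and 2 matched crosswise (0.567 and 0.568). Equal numbers thus matched throughout in 1 comparison only. Alternatives were TPM, quantile normalization and median-of-ratios scaling, other pseudocounts (0.1 and 0.5), testing all genes or those averaging at least 5 FPKM, array weights, robust variances, 2 groups alone, a replicate block, length removal with and without a block, the length slope as a covariate, and leaving out each library. Length removal without ST045849 library 1, and removal by transcript length, were added after seeing the data. Of the other marker lists, 2 of 4 skeletal muscle genes were tested and 0 called, and endothelial and erythroid genes summed to under 1 FPKM in every library.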

Additional observations from a re-analysis of the deposited data

How the results depend on the processing

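The count of repair genes called for bleomycin against vehicle was 0 under every setting run. Over all genes the count for that comparison, 607 as reported, was 284 with a mean of at least 5 FPKM, 1024 with 2 groups alone, 1938 with array weights, 1234 with the length slope as a covariate and 980 with the length trend removed and ST045849 library 1 left out. It was 1329 with length removal and a replicate block and 1557 with transcript length removal and a block. Leaving out 1 library gave 184 to 820.

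For ST045849 against bleomycin, 0 as reported, all genes gave 1 without a filter and 2 each with a mean of at least 5 FPKM, quantile normalization, array weights, length removal and transcript length removal. The replicate block with 2 groups alone gave 2403, 141 after length removal and 40 after transcript length removal, and length removal without ST045849 library 1 gave 447. Repair genes called were 5 with the replicate block, 1 with the block after length removal, 1 with length removal without ST045849 library 1 and 0 elsewhere. Leaving out 1 library gave 0 to 2219 genes and 0 to 6 repair genes. The 2219 genes and the 6 repair genes came without ST045849 library 1, and without library 2 there were 3 genes and 0 repair genes.

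For ST045849 against vehicle the 1225 genes became 651 without a filter, 660 with a mean of at least 5 FPKM, 710 as TPM, 621 with 2 groups alone, 2767 with array weights and 364 with the length slope. They became 199 with the replicate block and 2 groups alone, 334 with the block after length removal, 492 with the block after transcript length removal and 1991 with length removal without ST045849 library 1. The 1 repair gene became 0 without a filter, with a mean of at least 5 FPKM, with 2 groups alone (with or without the block), with the length slope, with length removal and a block, and with transcript length removal (with or without a block), and 2 (Atr and Rnf8) with array weights. With length removal alone the 1 gene was Rnf8 and not Atr. With the length slope Atr kept its size, at -0.64 (adjusted p = 0.138). Leaving out 1 library gave 286 to 3054 genes and 0 to 3 repair genes. A block over all 9 libraries changed no call of a repair gene.

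Taken per comparison, among the genes with the smallest p or a call under any setting, the directions of Atr, Prkdc, Mdc1 and H2afx turned. Against bleomycin Atr became 0.31 with length removal (also with a block), 0.54 when ST045849 library 1 was also left out and 0.13 with transcript length removal (also with a block). Against vehicle it became 0.088 with length removal (also with a block) and 0.32 when that library was also left out. Prkdc became 0.009 and 0.26 against bleomycin with exon and transcript length removal, and 0.075 and 0.29 against vehicle (each also with a block), or 0.051 against vehicle without that library. With the length slope as a covariate Mdc1 became 0.16 against bleomycin and 0.044 against vehicle, and H2afx -0.062 against bleomycin. The cause was not tested. Among the other tested repair genes the sign changed in 42 of 450 fits (11 genes) for bleomycin against vehicle, 29 of 398 (7 genes) for ST045849 against bleomycin and 41 of 452 (12 genes) for ST045849 against vehicle, at sizes up to 0.25 and with 0 calls gained or lost. Atm and Trp53bp1 were among these other genes against vehicle. There Atm turned from -0.37 to 0.006 with exon and 0.23 with transcript length removal. Trp53bp1 turned from -0.38 to 0.15 and 0.21. The 8 repair genes below the filter rested on 19 to 552 fragments per library.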
